A study of Mus musculus with 8 samples.

Results

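Krüppel-like factors (KLFs) are transcription factors that share zinc fingers at their carboxyl end. The genes described here are *Klf2*, *Klf3*, *Klf4*, *Klf6*, *Klf7*, *Klf9*, *Klf10*, *Klf11*, *Klf12* and *Klf13*, chosen by gene name as the family without the erythroid factor *Klf1*. They are 10 of the 47493 genes in the table, and 7 other genes of the family are given only for comparison. RNA was sequenced from endogenous CD8+ T cells of 4 female C57BL/6 mice aged 6 to 8 weeks, and each mouse gave a fraction enriched for high IL-18Rα (enriched, n = 4) and the cells that ran through the same column (flow-through, n = 4). All animals, those of the control fraction included, had received B16F10 melanoma cells (200000 per mouse, day 0), cyclophosphamide (300 mg/kg, day 3), Thy1.1 Pmel-1 T cells with a transgenic receptor for the melanoma antigen gp100 (2000000 per mouse, day 5), human IL-2 (10000 IU daily for 3 days from day 5) and anti-CD4 antibody (200 μg weekly for 3 weeks from day 10). Cells of the inguinal lymph nodes and spleen were taken on day 25. Red cells were lysed, CD8+ T cells were left untouched by negative selection, and Thy1.1-positive cells were removed. Both fractions came from columns with magnetic beads and not from a flow cytometric sort. The enriched fraction was thus enriched for IL-18Rαhi cells but need not hold them alone. The flow-through held the cells that the column did not retain, whatever their IL-18Rα level.

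KLFs bind GC-rich elements and the CACCC box, and differ mainly in the cofactors that their amino-terminal parts recruit, so that some act largely as activators and others as repressors. In T cells the family is best known for quiescence and traffic: KLF2 holds naive and memory cells at rest and activates genes of lymphocyte traffic such as that of the egress receptor S1PR1. KLF4 restrains the division of CD8+ T cells, KLF10 and KLF11 were found as genes induced by transforming growth factor-β (TGF-β), and KLF13 was found as an activator of the chemokine gene *Ccl5* in activated T cells.

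The level of *Il18r1*, which encodes the selected receptor, checks the labels. It was between 22.2 and 37.2 FPKM (fragments scaled to transcript length and to library depth) in the flow-through and between 106.6 and 116 FPKM in the enriched libraries, with a log2 fold change of 1.85 (limma adjusted p = 0.000291, SE 0.15). Fold changes are enriched minus flow-through on the scale of log2(FPKM + 1), for which a limma adjusted p under 0.05 over 12166 genes is called a difference. Estimated depth was between 14100000 and 17800000 fragments, and from 11706 to 12288 genes per library reached 1 FPKM. Flow-through replicate 1 stood apart: its summed level of 8 CD8 T-cell identity genes was 1280 FPKM, while flow-through replicates 2 to 4 had 2048 to 2427 FPKM and enriched libraries 2403 to 2578 FPKM. Results of the KLF genes that rest on it are given with and without it. Single genes of the lists are not given without it, and T-cell scaling, described below, was not run without it. The summed level of 10 erythroid genes was between 905.6 and 2871 FPKM in the flow-through and between 220.7 and 1495 FPKM in the enriched libraries, and 10 myeloid genes were between 147.2 and 565.2 FPKM and between 462.2 and 1597 FPKM. In such bulk RNA, fewer cells of a type and less RNA per cell cannot be told apart.

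*Klf2* was the most abundant of the 10 genes in every library, and *Klf12* had the lowest mean in both fractions. FPKM is a level per length, so genes can be set side by side on it. *Klf2* made up 49.9% of the summed level of the 10 genes in the flow-through (42.8% to 56.4%) and 51.5% in the enriched fraction (48.5% to 55%). *Klf3* was the second gene by mean in both fractions, but its share was 19% (15.6% to 23.3%) in the flow-through and 12.2% (11% to 14.1%) in the enriched fraction. The order of the levels in the flow-through was *Klf2*, *Klf3*, *Klf13*, *Klf6*, *Klf4*, *Klf10*, *Klf11*, *Klf9*, *Klf7* and *Klf12*. Of these neighbours, *Klf13* and *Klf6*, *Klf6* and *Klf4*, *Klf4* and *Klf10*, and *Klf9* and *Klf7* overlapped in their ranges over the libraries. In the enriched fraction the order was *Klf2*, *Klf3*, *Klf6*, *Klf13*, *Klf4*, *Klf10*, *Klf11*, *Klf7*, *Klf9* and *Klf12*, and there the ranges of *Klf3* and *Klf6*, *Klf6* and *Klf13*, *Klf4* and *Klf10*, and *Klf9* and *Klf12* overlapped.

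**Figure D1:**
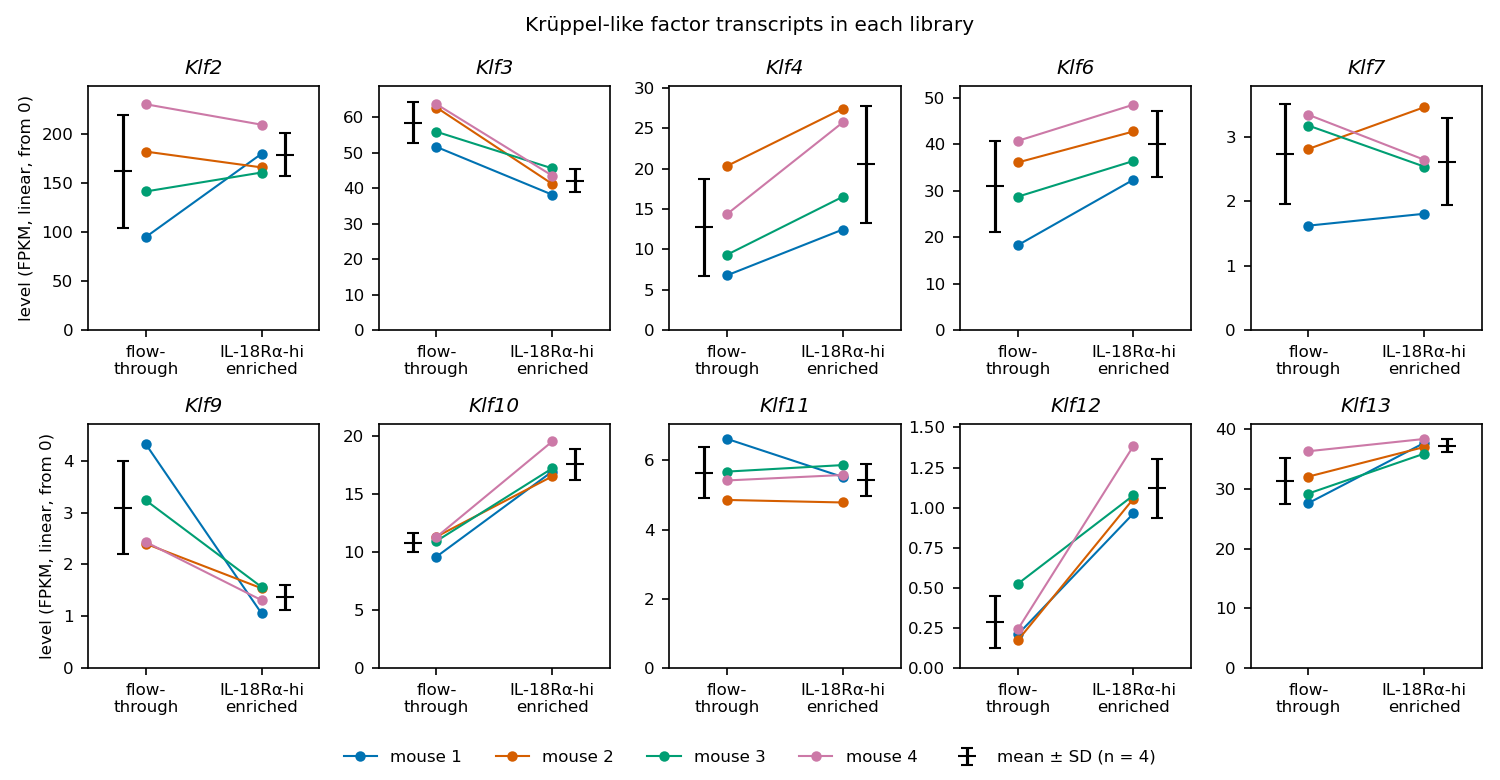
Level of each of the 10 genes in FPKM, with 1 point per library, the libraries of a mouse joined by a line, and bars for the mean ± SD (n = 4) of each fraction. The enriched libraries of *Klf3* (38.1 to 45.5 FPKM) and *Klf9* (1.06 to 1.57 FPKM) lie below all flow-through libraries, those of *Klf10* (16.5 to 19.6 FPKM) and *Klf12* (0.964 to 1.39 FPKM) lie above them, and the other genes overlap.

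To learn which KLFs differ in IL-18Rαhi cells, the fractions were compared. *Klf10* was higher and *Klf3* and *Klf9* were lower in the enriched fraction, and the other 6 genes tested did not pass. *Klf12* was under the filter of a mean of 1 FPKM and was not tested with the other 9. Over the whole table, 14.1% of genes tested were called higher and 13.7% lower, so 1 of 9 higher and 2 of 9 lower is close to what the table holds throughout. The fractions did not overlap in the higher direction for 1 of 9 and in the lower direction for 2 of 9, where 16.4% and 15.9% of all genes did not. The median log2 fold change of the 9 genes was 0.21, against -0.02 over all genes tested. With the mouse as a block, which compares the fractions within each animal, *Klf4*, *Klf6* and *Klf13* were called higher as well, which made 4 higher and 2 lower, where 22.2% and 22.7% of all genes were called. T-cell scaling sets all libraries to the same mean log2 level of the CD8 T-cell identity genes and moved the median of all genes from -0.02 to -0.33. Under it limma called 0 members higher (0 also at an unadjusted p under 0.05) and 2 lower, *Klf3* and *Klf9*, where 4.51% and 8.98% of all genes were called. Further fits with the block were chosen after the data had been seen. With T-cell scaling added, 0 members were higher and 2 lower, where 5.28% and 18.7% of all genes were called. With no filter it was 3 higher and 1 lower, where 10.9% and 9.36% were called, and without mouse 1 it was 3 higher and 2 lower, where 20.8% and 20.2% were called.

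**Figure D2:**
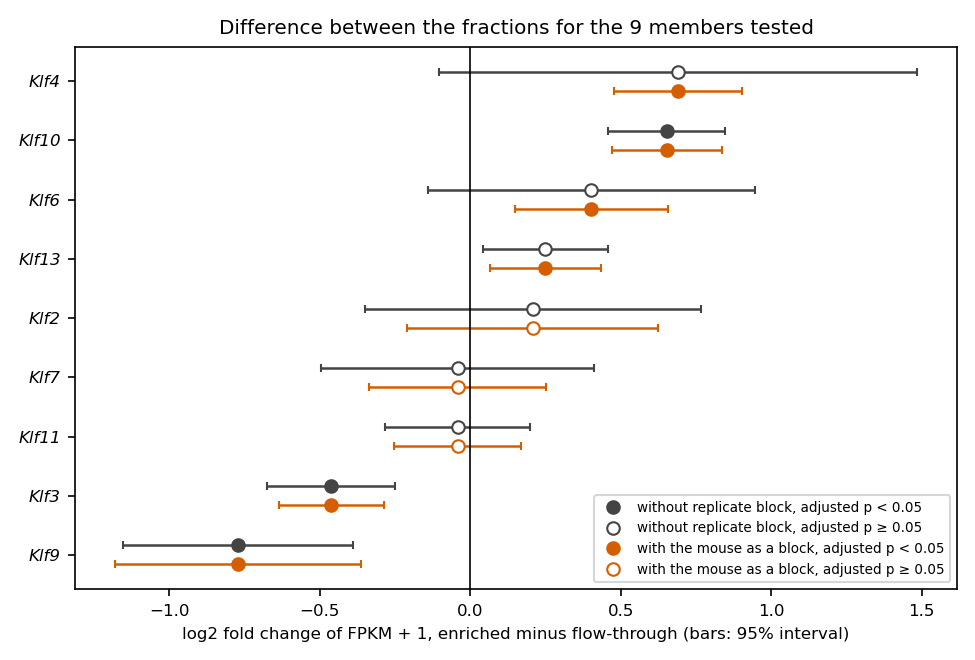
Log2 fold change of FPKM + 1, enriched minus flow-through, with 95% confidence intervals from limma without a block and with the mouse as a block, for the 9 genes tested, with filled points for an adjusted p under 0.05. The interval of *Klf4* is -0.10 to 1.48 without the block and 0.48 to 0.90 with it, while *Klf3*, *Klf9* and *Klf10* are filled in both.

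*Klf3* and *Klf9* were the members that fell. KLF3 is a repressor that recruits the corepressor CtBP, and its gene (ENSMUSG00000029178, protein-coding, plus strand of mm10 chromosome 5 at 64803388 to 64832901) is known as a target of KLF1 in erythroid cells. *Klf3* was at 51.6, 62.7, 55.8 and 63.6 FPKM in flow-through replicates 1 to 4 and at 38.1, 41.2, 45.5 and 43.5 FPKM in enriched replicates 1 to 4. Every enriched library was below every flow-through library, and the gene was lower in 4 of 4 mice. Means were 58.4 ± 5.73 and 42.1 ± 3.19 FPKM (SD, n = 4), a ratio of 0.72, and the log2 fold change was -0.46 (limma adjusted p = 0.00882, SE 0.09). Under T-cell scaling the value was -0.80 (limma adjusted p = 0.0228), also below the shifted median of all genes. Without flow-through replicate 1 it was -0.52. The table also lists *Gm20033* on the opposite strand of *Klf3* (0.86 to 2.35 FPKM) and *C230096K16Rik* on its own strand (1.32 to 4.01 FPKM). Their reads are taken not to have been told apart by strand.

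KLF9 is a repressor that acts with the SIN3A complex and is induced by glucocorticoid and thyroid hormone. *Klf9* (ENSMUSG00000033863, protein-coding, plus strand of mm10 chromosome 19 at 23141226 to 23168134) was at 4.32, 2.40, 3.24 and 2.43 FPKM in flow-through replicates 1 to 4 and at 1.06, 1.54, 1.57 and 1.31 FPKM in the enriched replicates. No libraries of the fractions overlapped, and mouse 1 had both the highest flow-through and the lowest enriched value. Means were 3.10 ± 0.90 and 1.37 ± 0.24 FPKM, a ratio of 0.44, and the log2 fold change was -0.77 (limma adjusted p = 0.0117, SE 0.17), in the same direction in 4 of 4 mice. Leaving out flow-through replicate 1 gave -0.64 (limma adjusted p = 0.0139), and T-cell scaling gave -1.02 (limma adjusted p = 0.0452). This is a gene of low level, and with the mouse as a block and no filter on low values its limma adjusted p was 0.05.

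Erythroid markers moved in the same direction as *Klf3* and *Klf9*. Of 10 erythroid genes, 3 of 10 tested were lower (*Gata1*, *Epor* and *Car1*) and 0 were higher, and 7 were lower with the mouse as a block, while none of the 10 was at 0 in every library. The share of all genes that was lower was 13.7% without the block and 22.7% with it. Mouse 1 had the highest erythroid sum in both fractions (2871 and 1495 FPKM) and the lowest *Klf3* in both (51.6 and 38.1 FPKM). In the enriched fraction mice 2, 4 and 3 had the same rising order for the erythroid sum and for *Klf3*. In the flow-through the orders differed: the erythroid sum rose from mouse 2 over 4 and 3 to mouse 1, and *Klf3* from mouse 1 over 3 and 2 to mouse 4. For *Klf9* mouse 1 was the highest in the flow-through and the lowest in the enriched fraction. The part of erythroid RNA in either difference was not tested.

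The stretches before the start sites of both genes are shown because CACCC and GC boxes are the elements that KLFs bind, in other KLF genes as well. Sequences are from RefSeq (GRCm38.p6), plus strand, with capitals for the CACCC box and for the GC box, GGGCGG, each searched on both strands. A CACCC box and a GC box share 1 base where they meet at the end of the run in *Klf3*. The *Klf3* stretch is chr5:64803271-64803387 and the *Klf9* stretch chr19:23140976-23141225.
Klf3: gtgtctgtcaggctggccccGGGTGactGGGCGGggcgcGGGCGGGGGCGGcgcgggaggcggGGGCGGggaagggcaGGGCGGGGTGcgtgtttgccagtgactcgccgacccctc
Klf9: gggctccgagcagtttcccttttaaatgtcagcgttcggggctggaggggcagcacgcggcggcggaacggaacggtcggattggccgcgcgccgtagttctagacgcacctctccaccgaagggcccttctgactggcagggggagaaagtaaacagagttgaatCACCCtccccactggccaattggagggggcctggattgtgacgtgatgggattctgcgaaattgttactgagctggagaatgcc
The *Klf3* stretch of 117 bases held 2 CACCC and 5 GC boxes, and the *Klf9* stretch of 250 bases 1 CACCC and 0 GC boxes. Sequences were matched for 9 of the 10 genes, all but *Klf10*. Over the window of 250 bases before the RefSeq start, *Klf3* held 5 CACCC and 6 GC boxes, *Klf7* held 3 and 1, *Klf2* held 1 and 2, *Klf13* held 1 and 3, *Klf12* held 1 and 0, *Klf4* and *Klf11* each held 0 and 4, and *Klf6* held 0 and 1. By the gene positions of GENCODE, the windows of *Klf7* and *Klf12* lay inside the gene. Those of *Klf2*, *Klf3*, *Klf6* and *Klf11* lay partly inside it, and the printed *Klf3* stretch stops before the gene start. Among 32851 RefSeq promoters of that length, 52.0% held a CACCC box and 32.7% a GC box on either strand. A match describes the letters only.

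*Klf10* was the member that rose without a block, and its closest relative *Klf11* did not pass the test. Both encode repressors that act through SIN3A and HDAC proteins and were named for early induction by TGF-β. *Klf10* (ENSMUSG00000037465, protein-coding, minus strand of mm10 chromosome 15 at 38291463 to 38300706) was at 9.62, 11.4, 11.0 and 11.3 FPKM in the flow-through and at 17.0, 16.5, 17.2 and 19.6 FPKM in the enriched replicates. Both sets of libraries were narrow and did not overlap, with means of 10.8 ± 0.81 and 17.6 ± 1.35 FPKM and a ratio of 1.63. The log2 fold change was 0.65 (limma adjusted p = 0.00185, SE 0.09), with a higher value in 4 of 4 mice, and was 0.60 to 0.68 when any 1 library was left out. Under T-cell scaling *Klf10* lost its call at 0.33 (limma adjusted p = 0.192), while the median of all genes was -0.33.

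*Klf11* (ENSMUSG00000020653, protein-coding, plus strand of mm10 chromosome 12 at 24651274 to 24662789) was at 6.61, 4.85, 5.67 and 5.42 FPKM in the flow-through and at 5.51, 4.78, 5.86 and 5.57 FPKM in the enriched replicates. The ranges overlapped, 2 of 4 mice were higher, and the log2 fold change of -0.04 (limma adjusted p = 0.79) had a 95% confidence interval of -0.28 to 0.20.

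Genes of TGF-β signaling were set beside this pair. Of the 8 tested, 4 were higher and 0 lower, with a median log2 fold change of 0.27. Over all genes 14.1% were higher and 13.7% lower, with a median of -0.02, and 22.2% and 22.7% were called with the block. SMAD3, which with SMAD2 carries the signal of the TGF-β receptor to the nucleus, showed the largest value of the list: *Smad3* means were 14.3 ± 1.15 and 26.3 ± 0.55 FPKM, and its log2 fold change was 0.84 (limma adjusted p = 0.000431, SE 0.07). The receptor genes *Tgfbr1* (0.61, limma adjusted p = 0.0195) and *Tgfbr2* (0.51, limma adjusted p = 0.0337) and *Smad2* (0.26, limma adjusted p = 0.0468) also rose. *Smad7*, a feedback inhibitor of the receptor that is itself induced by TGF-β, had a log2 fold change of -0.47 (limma adjusted p = 0.0653) and was lower with the mouse as a block (limma adjusted p = 0.035), when 6 genes of the list were higher and 1 lower. With T-cell scaling 0 of the 8 were called higher and 1 lower. Leaving out 1 library gave 1 to 4 higher, with 1 without enriched replicate 2, 3 or 4 and 2 without flow-through replicate 3 or enriched replicate 1.

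*Klf12* had the largest ratio between the fractions at the lowest level. KLF12 is a repressor that recruits CtBP, as KLF3 does. *Klf12* (ENSMUSG00000072294, protein-coding, minus strand of mm10 chromosome 14 at 99870632 to 100284679) was at 0.210, 0.173, 0.525 and 0.242 FPKM in the flow-through and at 0.964, 1.06, 1.08 and 1.39 FPKM in the enriched replicates. Every enriched library was above every flow-through library, and the ratio of means was 3.90 (0.288 ± 0.16 and 1.12 ± 0.18 FPKM). Within the mice the ratio ran from 2.05 to 6.11. Since its mean over the 8 libraries was under 1 FPKM, it was tested only in the fit without a filter, where its log2 fold change was 0.72 (limma adjusted p = 0.00625, SE 0.10) and 7.32% of 22789 genes were called higher, and the adjusted p was 0.0135 with the mouse as a block as well. On the scale of log2(FPKM + 1) this value understates the ratio. Antisense entries within the gene reached at most 0.0699 FPKM.

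*Klf4*, *Klf6* and *Klf13* were higher in 4 of 4 mice each, but were called with the mouse as a block and not without it. For *Klf4* and *Klf6*, flow-through libraries of different mice lay farther apart than the means of the fractions. KLF4 (ENSMUSG00000003032, protein-coding, minus strand of mm10 chromosome 4 at 55527143 to 55532466) restrains the division of T cells and is also a factor of monocyte differentiation. *Klf4* was at 6.79, 20.3, 9.35 and 14.4 FPKM in flow-through replicates 1 to 4 and at 12.5, 27.4, 16.5 and 25.8 FPKM in the enriched replicates of the same mice. The ranges overlapped, but each enriched library was above the flow-through library of its mouse, by a ratio of 1.35 to 1.83. The log2 fold change was 0.69 (limma adjusted p = 0.169, SE 0.35) without a block, and with the block the SE was 0.09 and the limma adjusted p was 0.00162. Without both libraries of mouse 1 the blocked value was 0.66 (limma adjusted p = 0.00388), but with the block and T-cell scaling it was 0.37 (limma adjusted p = 0.248).

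Myeloid markers moved with *Klf4*. Of 10 myeloid genes 9 were tested, of which 4 were higher and 0 lower, and 7 were higher with the block. The share of all genes that was higher was 14.1% without the block and 22.2% with it. *Ly6g* was under the filter and no myeloid gene was at 0 in every library. In both fractions the mice had the same order for *Klf4* and for the myeloid sum, mouse 1 being the lowest, then 3, then 4, and mouse 2 the highest. The erythroid sum had exactly the reverse order in both fractions, so the order does not single out the myeloid genes. The part of myeloid RNA in the difference of *Klf4* was not tested.

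KLF6 is widely expressed and rises early after many stimuli. *Klf6* (ENSMUSG00000000078, protein-coding, plus strand of mm10 chromosome 13 at 5861482 to 5870394) was at 18.2, 36.0, 28.7 and 40.7 FPKM in the flow-through and at 32.4, 42.7, 36.4 and 48.5 FPKM in the enriched replicates. Flow-through replicate 1 was far below all others, and the fractions overlapped. Without a block the log2 fold change was 0.40 (limma adjusted p = 0.233, SE 0.24), and with the block the limma adjusted p was 0.0211. Without flow-through replicate 1 the unblocked value was 0.18 (limma adjusted p = 0.45), and without both libraries of mouse 1 the blocked value was 0.27 (limma adjusted p = 0.0178). With the block and T-cell scaling it was 0.07 and was not called.

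Immediate early genes, which a stimulus or the handling of cells can raise within minutes, were listed beside *Klf6*. Of the 10 tested with limma, 0 were higher and 0 lower without a block (1 higher, *Atf3*, at an unadjusted p under 0.05), and 3 were higher (*Fosb*, *Nr4a1* and *Atf3*) and 1 lower (*Jun*) with it, where 22.2% and 22.7% of all genes were called. Their summed level was between 717.8 and 1692 FPKM in the flow-through and between 844.2 and 1586 FPKM in the enriched fraction. The mice had the same order for this sum and for *Klf6* in both fractions, from mouse 1 over 3 and 2 to mouse 4. That order is not particular to immediate early genes. The summed level of the 8 naive T-cell genes described below had it in both fractions. *Klf2* and the CD8 T-cell sum had it in the flow-through only. The part of handling or activation in the level of *Klf6* was not tested.

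*Klf13* (ENSMUSG00000052040, protein-coding, minus strand of mm10 chromosome 7 at 63886351 to 63938915) was at 27.6, 32.0, 29.2 and 36.3 FPKM in the flow-through and at 37.7, 37.0, 35.9 and 38.3 FPKM in the enriched replicates. The enriched libraries were narrow, and only flow-through replicate 4 reached into their range. The log2 fold change was 0.25 (limma adjusted p = 0.0727, SE 0.09), and the limma adjusted p was 0.0372 with the block and 0.0797 with the block but without mouse 1. Without a block, leaving out flow-through replicate 4 gave 0.32 (limma adjusted p = 0.0252), and leaving out any other library did not give a call. T-cell scaling turned its direction to -0.085 (limma adjusted p = 0.715), which was still above the shifted median of all genes.

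**Figure D3:**
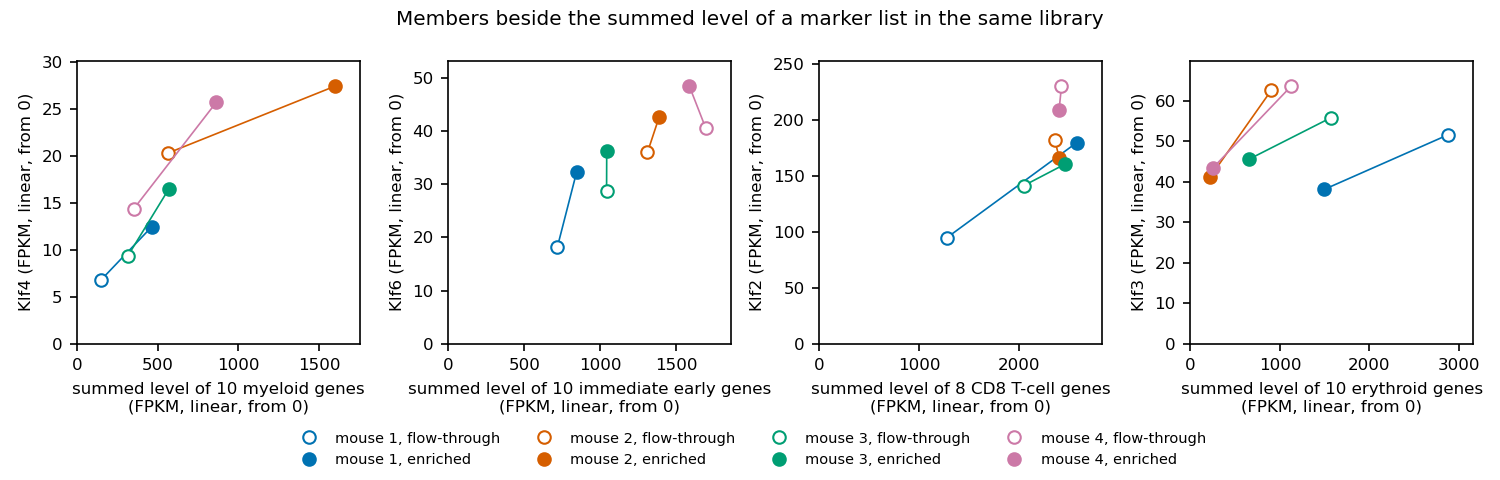
Level of *Klf4*, *Klf6*, *Klf2* and *Klf3* (FPKM) against the summed level of the myeloid, immediate early, CD8 T-cell and erythroid lists (FPKM) in the same library, both on linear axes from 0, with 1 color per mouse, open points for the flow-through and filled points for the enriched fraction. *Klf4* and *Klf6* follow the order of the mice in their lists within each fraction, and flow-through replicate 1 has the lowest CD8 T-cell sum (1280 FPKM) together with the lowest *Klf2* (94.8 FPKM).

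*Klf2*, the most abundant member, did not pass the test. *Klf2* (ENSMUSG00000055148, protein-coding, plus strand of mm10 chromosome 8 at 72319033 to 72321656) was at 94.8, 182, 141 and 230 FPKM in the flow-through and at 180, 166, 161 and 209 FPKM in the enriched replicates. It was higher in 2 of 4 mice and lower in 2, and flow-through replicate 1 was the lowest library of all. The log2 fold change was 0.21 (limma adjusted p = 0.553, SE 0.24) with a 95% confidence interval of -0.35 to 0.77. Its direction turned to -0.02 without flow-through replicate 1 and to -0.13 under T-cell scaling. With the mouse as a block the limma adjusted p was 0.368.

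Genes that need KLF2 for their expression were examined next. *Itgb7*, an integrin chain, had means of 226.7 ± 53.4 and 394.6 ± 18.6 FPKM and rose (log2 fold change 0.83, limma adjusted p = 0.0094, SE 0.17). *S1pr1*, which lets T cells leave lymphoid organs, had a log2 fold change of 0.17 (95% confidence interval -0.34 to 0.67, limma adjusted p = 0.599).

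Among genes reported to rise in T cells that lack KLF2, the chemokine receptor gene *Cxcr3* rose (log2 fold change 1.53, limma adjusted p = 0.000555, SE 0.14), the cytokine gene *Il4* was at 0.03 (limma adjusted p = 0.937), and *Ccr3* was under the filter. *Cxcr3* was between 44.7 and 74.2 FPKM in the flow-through and between 168.9 and 194.9 FPKM in the enriched libraries, so the fractions were far apart for this gene while they overlapped for *Klf2* itself.

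Of 10 factors that set the transcription or turnover of KLF2, 1 was higher and 1 lower, where 14.1% and 13.7% of all genes were called. *Fbxw7*, a subunit of a ubiquitin ligase, rose by 0.26 (limma adjusted p = 0.0459), and *Foxo3*, a relative of the factor FOXO1 that activates *Klf2*, fell by 0.34 (limma adjusted p = 0.0436). *Foxo1* itself had a log2 fold change of 0.27 (95% confidence interval -0.17 to 0.71, limma adjusted p = 0.317). With the block 1 was higher and 3 were lower, where 22.2% and 22.7% of all genes were called. Leaving out any 1 library gave 0 higher, and 0 lower except without flow-through replicate 1 or 2 (1 each), and under T-cell scaling 0 were called.

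KLF2 and KLF4 restrain the cell cycle through cyclin-dependent kinase inhibitors and *Myc*, and 3 of 4 such genes were tested. *Myc* was at 96.4, 101.2, 106.6 and 105.7 FPKM in the flow-through and at 38.0, 47.0, 43.4 and 40.3 FPKM in the enriched replicates. The gap between the fractions was wider than the range within either, and its log2 fold change was -1.26 (limma adjusted p = 0.0002, SE 0.08). *Cdkn1a*, which encodes the inhibitor p21, had a log2 fold change of 0.62 (limma adjusted p = 0.0555), and the limma adjusted p was 0.00272 with the block. Under T-cell scaling *Cdkn1a* was at 0.33 (limma adjusted p = 0.215), and with the block and T-cell scaling 0 genes of the list were called higher. *Cdkn1b* had a value of 0.04 (limma adjusted p = 0.847), and *Cdkn1c* was under the filter.

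*Klf2* is commonly counted among genes of naive T cells, and a list of these was measured. Of 8 genes tested, 0 were higher and 4 lower: *Ccr7* (-1.27, limma adjusted p = 0.00402), *Bach2* (-1.11, limma adjusted p = 0.0439), *Satb1* (-0.90, limma adjusted p = 0.00952) and *Lef1* (-0.75, limma adjusted p = 0.0276). With the block 6 were lower, *Foxp1* among those added, where 22.7% of all genes were lower with it and 13.7% without. The count depended on single libraries: 7 were lower without flow-through replicate 1, and 2 without any other 1 library. It was 7 under T-cell scaling. *Tcf7* (-0.13, limma adjusted p = 0.634) and *Il7r* (0.17, limma adjusted p = 0.603) passed neither test. The median of the list was -0.73, and *Klf3* (-0.46) and *Klf2* (0.21) lay above it.

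*Klf7* was the other member that did not pass. *Klf7* (ENSMUSG00000025959, protein-coding, minus strand of mm10 chromosome 1 at 64029447 to 64122282), best known in neurons, was at 1.62, 2.81, 3.17 and 3.34 FPKM in the flow-through and at 1.80, 3.46, 2.54 and 2.64 FPKM in the enriched replicates. It was higher in mice 1 and 2 and lower in mice 3 and 4. The log2 fold change was -0.04 (limma adjusted p = 0.892) with a 95% confidence interval of -0.50 to 0.41. *Gm26649*, on the opposite strand within the gene, was at 1.8 to 4.01 FPKM, as high as *Klf7* itself, and strand is taken not to have been used to separate them.

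Of the 7 other KLF genes, 3 were tested, and none passed limma without a block (1, *Klf1*, had an unadjusted p under 0.05). *Klf1*, the erythroid factor, was at 225.3, 50.6, 110.8 and 68.7 FPKM in the flow-through and at 74.4, 10.3, 40.6 and 14.3 FPKM in the enriched replicates. It was lower in 4 of 4 mice, with a log2 fold change of -1.85 (limma adjusted p = 0.0685, and 0.00034 with the block). *Klf16* had a log2 fold change of -0.30 (limma adjusted p = 0.122, and 0.0286 with the block), and *Klf8* of 0.19 (limma adjusted p = 0.554). *Klf5*, *Klf14*, *Klf15* and *Klf17* were under the filter, and *Klf17* was listed at 0 in every library.

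SP factors, the nearest relatives of the KLFs, bind the same GC boxes. Of 9 SP genes 4 were tested, of which *Sp2* (0.37, limma adjusted p = 0.0078, SE 0.07) and *Sp4* (0.24, limma adjusted p = 0.0425, SE 0.07) were higher and 0 lower, where 14.1% and 13.7% of all genes were called. *Sp1* was at 0.22 (limma adjusted p = 0.0831, and 0.0412 with the block) and *Sp3* at 0.08 (limma adjusted p = 0.385). With T-cell scaling 0 of the 4 were called, and leaving out any 1 library but enriched replicate 1 left 1 higher.

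The cofactors that KLFs recruit were present in every library. Of 10 tested, 2 were higher and 2 lower, which is close to the 14.1% and 13.7% of all genes. *Ctbp2* was at 11.2, 8.20, 9.81 and 8.54 FPKM in the flow-through and at 3.55, 6.20, 4.83 and 4.04 FPKM in the enriched replicates, with no overlap, and fell by 0.90 on the log2 scale (limma adjusted p = 0.00548, SE 0.16). Its paralog *Ctbp1*, at a far higher level of 140 ± 24 and 120.8 ± 8.05 FPKM, had a log2 fold change of -0.20 (limma adjusted p = 0.237). The histone deacetylase gene *Hdac2* fell by 0.34 (limma adjusted p = 0.0371). *Sin3b* (0.28, limma adjusted p = 0.0206) and the acetyltransferase gene *Crebbp* (0.40, limma adjusted p = 0.0477) rose, and *Sin3a* was at 0.05 (limma adjusted p = 0.638). Under T-cell scaling 0 of the 10 were called higher and 1 lower, and leaving out 1 library gave 0 to 3 higher and 1 to 2 lower, with 0 higher without flow-through replicate 3 or enriched replicate 2 or 4.

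**Figure D4:**
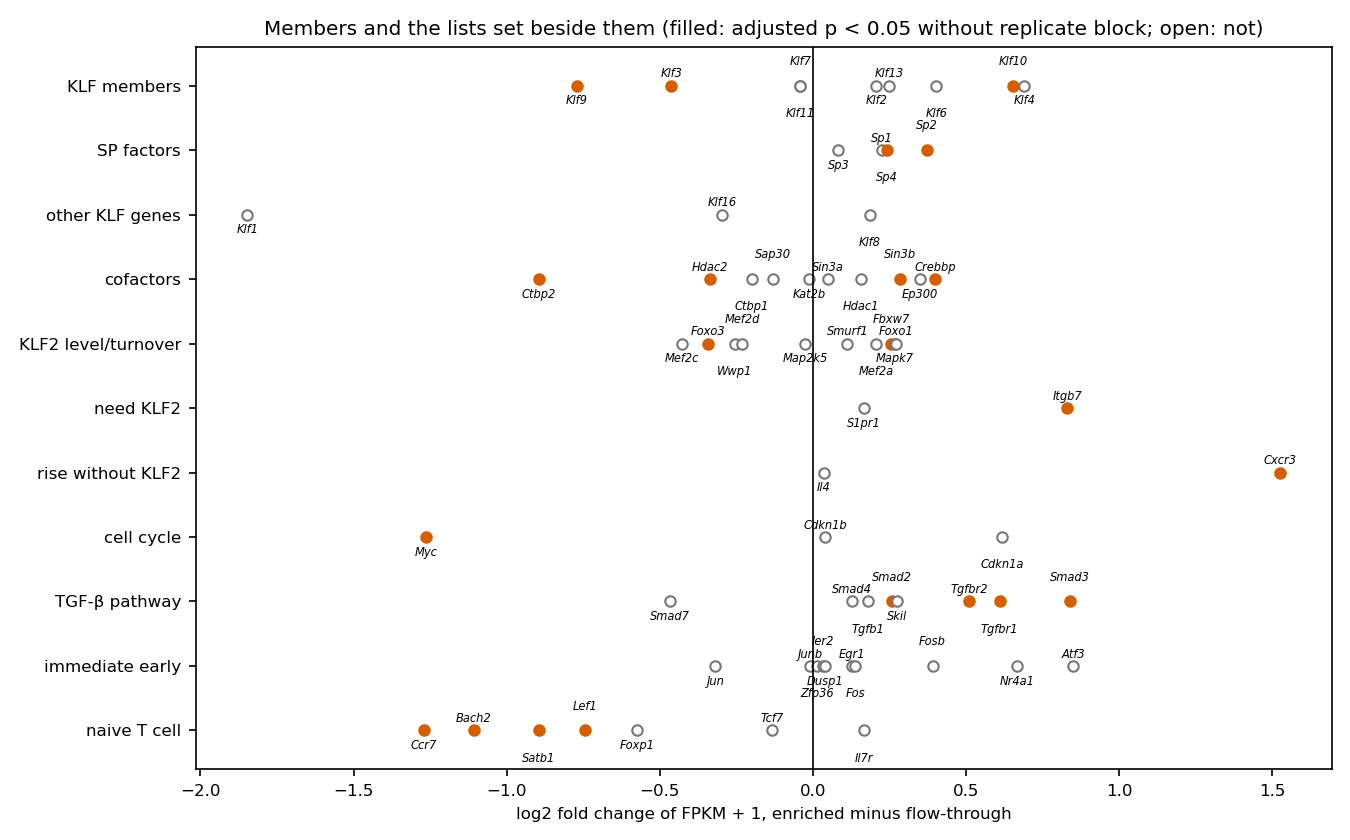
Log2 fold change of FPKM + 1, enriched minus flow-through, for the tested members and the named genes of the lists set beside them, 1 row per list, with filled points for a limma adjusted p under 0.05 without a block. No immediate early gene is filled, while *Cxcr3* (1.53), *Myc* (-1.26) and *Ccr7* (-1.27) lie farther from 0 than any of the 9 tested members.

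The genes whose pattern over the 8 libraries was most like that of a called member were sought among those with a mean of at least 5 FPKM, by the root mean square (RMS) difference of centred log2(FPKM + 1) profiles. For *Klf3* they were *Sesn1* (RMS 0.0636), *D2hgdh* (0.0649) and *Icam2* (0.0753), with log2 fold changes of -0.39, -0.50 and -0.36. For *Klf9* they were *Heatr5a* (0.0818), *Cluh* (0.0926) and *Sav1* (0.0965), at -0.69, -0.78 and -0.72. For *Klf10* they were *Egr2* (0.0445), *AU020206* (0.0554) and *Rap1gds1* (0.0559), at 0.63, 0.72 and 0.64. *Egr2*, a factor induced by T-cell receptor signals, averaged 4.06 FPKM in flow-through and 6.85 FPKM in enriched libraries. The likeness describes these libraries only.

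Markers of the other cell types that a bead selection can leave behind were also measured. Of the 8 CD8 T-cell genes 1 was higher (*Zap70*), and *Cd8a* and *Cd8b1* were abundant in all libraries. For B cells 1 of 6 tested was higher, for NK cells 3 of 4, for dendritic cells 4 of 5 and for innate-like T cells 4 of 5, and 0 were lower in each of these 4 lists, where 14.1% and 13.7% of all genes were called. The summed levels of these 4 lists were 25.4 to 66.3, 3.10 to 9.39, 10.1 to 15.8 and 5.82 to 16.9 FPKM in the flow-through and 41.9 to 86.9, 20.4 to 68.6, 20.4 to 42.7 and 21.7 to 47.3 FPKM in the enriched fraction, and no marker was at 0 in every library. Their part in the differences of the KLF genes was not tested.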

How the data were processed

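The deposited table gives FPKM per gene and library, which the authors computed from stranded poly(A) libraries. Per the methods and the submitters' processing notes, filtered paired reads were mapped to mm10 with TopHat and quantified with Cufflinks 2.1.1 with correction for multiple mapping and fragment bias. The annotation release is not given in the sources used here. Other options were default, so the strand is taken not to have been used. Cufflinks returns no whole reads, and depth was estimated from the smallest values. Positions are from GENCODE M21, which held 98.9% of the identifiers.

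Groups and replicate numbers came from the labels, and the replicate number was used as the mouse number. The fractions were compared on log2(FPKM + 1) in R 4.3.3 by limma 3.58.1 with a variance trend, for the 12166 genes whose mean reached 1 FPKM, with Benjamini-Hochberg adjustment over all of them and a threshold of 0.05, without a block, since the study's methods name none. For genes of low level this scale shrinks a fold change. Fractions of the same number were taken to come from the same mouse. Their deviations from the group means correlated across genes, which are not independent, at 0.66, 0.589, 0.308 and 0.471 for mice 1 to 4. The highest correlation of each flow-through library with an enriched library of another number was 0.202, 0.412, 0.191 and 0.282. The mouse was therefore used as a block in an alternative.

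The KLF genes and all lists were chosen with earlier results of these data known, and lists are described by counts and medians, which also cover list genes that are not reported here. Every KLF gene is named, genes of the lists may be named, and for each called member the 3 genes of most similar profile, without antigen receptor segments and genes named Gm or Rik. Alternatives were the block, a pseudocount of 0.1, a mean of at least 5 FPKM, no filter, median-of-ratios scaling, T-cell scaling, no variance trend and each library left out. Promoter windows are 250 bases before the RefSeq start.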

Additional observations from a re-analysis of the deposited data

How the results depend on the processing

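*Klf3* (-0.52 to -0.42) and *Klf10* (0.60 to 0.68) kept their direction and call when each library was left out, as did *Klf9* (-0.85 to -0.64), and *Klf3* kept both under every alternative run. Leaving out 1 library gave 1 to 2 members higher and 2 lower, 1107 to 1813 genes higher over the whole table and 939 to 1780 lower. The lowest of these counts were without enriched replicates 2 (1115 higher, 958 lower) and 4 (1107 and 971) and, for lower genes, without flow-through replicate 3 (939). The other members ranged from -0.023 to 0.40 (*Klf2*), 0.45 to 0.94 (*Klf4*), 0.18 to 0.55 (*Klf6*), -0.20 to 0.073 (*Klf7*), -0.10 to 0.026 (*Klf11*) and 0.19 to 0.32 (*Klf13*), and *Klf13* was called without flow-through replicate 4 (0.32). *Klf2* was reversed without flow-through replicate 1 (-0.023), *Klf11* without flow-through replicate 1 (0.026) or enriched replicate 2 (0.008), and *Klf7* without flow-through replicate 3 (0.02) or 4 (0.039) or enriched replicate 1 (0.073). The cause was not tested.

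The mouse block gave 4 members higher (*Klf4* 0.69, *Klf6* 0.40 and *Klf13* 0.25 were added), 2705 genes higher and 2763 lower, and changed no other member's call. T-cell scaling gave 0 members higher, 549 genes higher and 1092 lower, with *Klf10* at 0.33 and no longer called, and *Klf2* (-0.135) and *Klf13* (-0.085) reversed. Both reversed values were above the median of all genes under that scaling (-0.33). Without a filter 2 members were higher, *Klf12* (0.72) being added, and with a mean of at least 5 FPKM 1 was lower, since *Klf9* was not tested.

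Of settings chosen after seeing the data, the block with T-cell scaling gave 0 members and 642 genes higher, with *Klf10* at 0.33, *Klf2* at -0.135 and *Klf13* at -0.085. The block with no filter gave 3 members higher (*Klf4* 0.69, *Klf10* and *Klf12* 0.72) and 1 lower, with *Klf9* at -0.77 not called, where 10.9% and 9.36% of all genes were called. The block without mouse 1 gave 3 members higher (*Klf4* 0.66, *Klf6* 0.27 and *Klf10*), where 20.8% of all genes were called higher, and reversed *Klf2* (-0.028) and *Klf11* (0.019). Counts of the lists were within 1.5 times those reported in 258 of 360 comparisons, and higher in 35 and lower in 67. A count of 0 that stayed at 0 was taken as within. The 258 therefore do not measure how steady the counts above 0 were.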
